A study of Mus musculus with 20 samples.

Results

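Elastic fibre and arterial matrix genes were followed across the microvascular compartments of the mouse renal cortex. The set held 10 of the 34255 genes in the count table, found there by symbol: the elastin gene Eln, the fibrillin gene Fbn1, the fibulin genes Fbln5 and Fbln2, the microfibril-associated genes Mfap4, Mfap5 and Emilin1, Ltbp4, Mgp and Lox. It was chosen with earlier results of these data known. Sequencing reads came from healthy wild-type male C57BL6/OlaHsd adults that had received no treatment. Post-capillary venules, arterioles, peritubular capillaries and glomeruli were excised by laser from frozen cortex, and whole kidney sections were the reference, with 4 libraries in each of the 5 groups. Arterioles, glomeruli and venules were recognised by shape after a hematoxylin stain and peritubular capillaries by a fluorescent lectin, so each piece is a vessel with whatever cells lay in or beside its wall rather than sorted endothelium. The labels call the libraries of a group biological replicates, and by the study's methods each mouse was dissected on slides of its own, with arterioles, glomeruli and venules taken from the same slide. Which mouse gave which library is not stated, so libraries of different compartments may share a mouse, and p-values measure the spread between these libraries. Libraries are named here by group and by the number in their column of the table, and values per library are always given in the order 93, 96, 98 and 100.

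An elastic fibre is a core of crosslinked elastin laid down on a scaffold of fibrillin microfibrils. Smooth muscle cells of the arterial wall secrete the elastin precursor, fibulins and EMILINs help to place it on the microfibrils, and lysyl oxidase joins the chains. Arteries carry concentric elastic layers that thin out towards the arterioles, whereas capillaries and small venules have few elastic fibres. Matrix Gla protein, the product of Mgp, is an inhibitor of calcification in the arterial wall.

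Libraries held 4639090 to 12283098 reads counted in genes. Levels are given as CPM, counts per 1000000 of the library total after TMM scaling. The 10 genes together took 1.10% ± 0.140 (SD, n = 4) of all counts in arterioles, 0.239% ± 0.0368 in post-capillary venules, 0.0910% ± 0.0219 in glomeruli, 0.0387% ± 0.00940 in peritubular capillaries and 0.0495% ± 0.00380 in whole kidney. All 10 passed the filter on low counts. Mfap4 had more than 10 counts in only 3 arteriole libraries and 1 venule library, so it passed largely through arterioles, where it is high. More than 10 counts in all 4 libraries of a group were found for 9 of the 10 genes in whole kidney, 7 in arterioles, 6 each in glomeruli and venules and 4 in peritubular capillaries.

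The compartments also differed in the cells they held. Marker mRNAs of smooth muscle (10 genes, among them Acta2 and Myh11) took 1.73% to 3.06% of counts in arterioles, 0.0981% to 0.117% in venules, 0.115% to 0.227% in glomeruli, 0.0250% to 0.0426% in peritubular capillaries and 0.0363% to 0.0432% in whole kidney. Markers of fibroblasts and adventitia (12 genes) took 0.181% to 0.268% in arterioles, 0.109% to 0.188% in venules, 0.101% to 0.136% in glomeruli and 0.0213% to 0.0391% in peritubular capillaries. Against whole kidney the median log2 change of the fibroblast list was -0.09 in glomeruli and 1.24 in venules, so its share is not read as fibroblast content. Whether each gene on it marks only fibroblasts here was not tested. Of these lists, 9 smooth muscle and 8 fibroblast genes had more than 10 counts in all 4 arteriole libraries, and 9 and 7 in all 4 venule libraries. Markers of all endothelium (10 genes) took 0.255% to 0.338% in arterioles and 0.277% to 0.375% in glomeruli, but 0.0352% to 0.0592% in peritubular capillaries, close to the 0.0399% to 0.0452% of whole kidney. In the peritubular capillary libraries 10 proximal tubule markers took 6.64% to 8.60% of counts, above the 4.42% to 4.75% of whole kidney, and only 5 of the 10 endothelial markers had more than 10 counts in all 4 libraries. Podocyte markers (8 genes) took 0.936% to 1.15% in glomeruli and at most 0.155% in any other library. The arterial endothelial list (10 genes) took 0.133% to 0.240% in arterioles and 0.125% to 0.210% in glomeruli, and at most 0.0169% elsewhere. Venous endothelial markers (8 genes) took 0.0683% to 0.0926% in venules and 0.0501% to 0.104% in arterioles, so this list did not set venules apart from arterioles. It includes Vwf, which the paper reports as an arteriole marker, beside Igf1, which the paper reports as a venule marker. Erythrocyte markers (5 genes) took 1.06% to 4.16% in arterioles, 1.98% to 4.87% in venules, 1.38% to 1.75% in glomeruli, 0.0812% to 0.182% in peritubular capillaries and 0.238% to 0.458% in whole kidney. Mesangial and pericyte markers (9 genes) took 0.442% to 0.629% in arterioles, 0.1302% to 0.168% in glomeruli, 0.0345% to 0.0476% in venules and 0.0163% to 0.0202% in whole kidney. The part of these cells in the results below was not tested. In such bulk samples fewer cells of a type and less RNA per cell cannot be told apart.

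Eln encodes the elastin precursor (ENSMUSG00000029675, chromosome 5, 134702593 to 134747323, minus strand of GRCm38). It measured 4053, 6478, 839 and 1947 CPM in arterioles. Venules held 53.1, 101, 69.1 and 107 CPM, and glomeruli 44.2, 27.2, 86.7 and 6.29 CPM. Peritubular capillaries held 4.85, 42.5, 35.3 and 8.998 CPM, and whole kidney 14.3, 13.1, 11.9 and 14.2 CPM. All 4 arteriole libraries stood far above the 16 others, although they differed among themselves by 7.72 times, and the 4 venule libraries also stood above all whole kidney libraries. The ratio of mean levels was 249 for arterioles over whole kidney and 40.3 for arterioles over venules. On the log2 scale the change was 7.96 ± 0.76 (SE) against whole kidney (FDR = 9.73e-10) and 5.33 ± 0.70 against venules (FDR = 3.14e-06). Below arterioles the order of mean levels was venules, glomeruli, peritubular capillaries and whole kidney, and no neighbouring pair of these passed the test (FDR 0.593, 0.536 and 0.660).

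Lox encodes lysyl oxidase, which crosslinks elastin and collagen. It measured 218, 167, 175 and 1.43 CPM in arterioles, 11.2, 0.221, 16.2 and 34.7 CPM in glomeruli and 1.68, 13.5, 0.185 and 3.08 CPM in venules. Arteriole 100, with 8 Lox reads, lay far below the other arterioles and below all 4 whole kidney libraries (2.43 to 4.95 CPM). All 4 peritubular capillary libraries were under 0.443 CPM, below every whole kidney library. Lox rose in arterioles against whole kidney by 5.24 ± 1.50 (FDR = 0.0203), a call that ended when any 1 of the 4 whole kidney libraries was left out (FDR up to 0.0735). Against peritubular capillaries the difference was 8.44 ± 1.9 (FDR = 0.00256), while those from glomeruli (3.17 ± 1.48, FDR = 0.231) and venules (4.92 ± 1.61, FDR = 0.0700) did not pass.

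Fbln5 encodes fibulin-5, which binds elastin and microfibrils and is needed for normal elastic fibres (ENSMUSG00000021186, chromosome 12, 101746565 to 101819055, minus strand). It measured 634, 1922, 585 and 555 CPM in arterioles, 125, 230, 197 and 135 CPM in venules, 74.4, 131, 105 and 84.7 CPM in glomeruli, 116, 152, 35.4 and 45.0 CPM in peritubular capillaries and 123, 70.0, 80.7 and 73.7 CPM in whole kidney. Arterioles did not overlap with any other group, and all 4 venule libraries also stood above the whole kidney libraries. The rise was 3.41 ± 0.55 against whole kidney (FDR = 3.62e-05) and 2.42 ± 0.57 against venules (FDR = 0.00873). Without arteriole 96 the difference from venules was 1.79 and the call was lost (FDR = 0.0816).

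Fbln2 encodes fibulin-2, a fibulin of elastic layers and of basement membranes (ENSMUSG00000064080, chromosome 6, 91212455 to 91272540, plus strand). Its arteriole libraries were close, at 49.7, 78.6, 99.7 and 97.97 CPM, and exceeded all 16 other libraries. In each other compartment 1 library was far above the rest. The 4 values were 4.31, 0.221, 0.390 and 37.9 CPM in glomeruli, 32.2, 0.738, 0.583 and 0.196 CPM in peritubular capillaries and 0.224, 0.243, 0.556 and 45.1 CPM in venules, against 1.42, 1.73, 2.95 and 1.51 CPM in whole kidney. These were 344, 259 and 337 reads in the high libraries and 1 to 43 in the others. With this spread the differences of 5.41 ± 1.93 from whole kidney (FDR = 0.0582) and of 3.00 ± 1.28 from the other 3 compartments (FDR = 0.112) did not pass, although the ratio of mean levels to whole kidney was 42.9. The difference from whole kidney passed in 7 of 28 alternative settings, among them the fits without peritubular capillary 93 or venule 100, and that from the other 3 compartments passed in 4 of 23, including the same 2 fits.

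Mfap5 encodes a small glycoprotein of microfibrils, also called MAGP-2 (ENSMUSG00000030116, chromosome 6, 122505845 to 122529290, plus strand). It measured 92.1, 204, 86.8 and 82.6 CPM in arterioles and 30.4, 12.9, 68.7 and 9.24 CPM in venules. It was nearly absent from the other compartments, with 0, 1, 4 and 3 reads in glomeruli and at most 0.590 CPM in peritubular capillaries, both below the 1.52 to 2.47 CPM of whole kidney. Arterioles and venules thus stood above whole kidney, and glomeruli and peritubular capillaries below it, without overlap. Arterioles exceeded whole kidney by 5.76 ± 1.37 (FDR = 0.00483), glomeruli by 9.15 ± 1.80 (FDR = 0.00161) and peritubular capillaries by 8.46 ± 1.75 (FDR = 0.00105). The difference between arterioles and venules, 1.93 ± 1.30 (FDR = 0.400), and that between venules and whole kidney, 3.81 ± 1.25 (FDR = 0.293), did not pass.

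The remaining microfibril genes were more uneven. Fbn1 encodes fibrillin-1, the main microfibril protein (ENSMUSG00000027204, chromosome 2, 125300594 to 125507993, minus strand). It measured 157, 0.483, 149 and 91.9 CPM in arterioles, where library 96 had only 3 reads and lay below every whole kidney library (5.47 to 8.18 CPM). Glomeruli followed with 4.11, 57.0, 43.8 and 22.4 CPM, venules held 20.6, 0.608, 4.26 and 41.0 CPM, and peritubular capillaries at most 0.816 CPM. The arteriole difference from whole kidney, 3.82 ± 1.41, did not pass (FDR = 0.0651) but did without arteriole 96, whereas Fbn1 was higher than in peritubular capillaries both in arterioles (7.68 ± 1.87, FDR = 0.00536) and in glomeruli (6.03 ± 1.74, FDR = 0.0363). The glomerular call was lost in 9 of 24 alternatives (FDR up to 0.104), among them leaving out arteriole 98, glomerulus 96, 98 or 100, or any peritubular capillary library.

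Emilin1 encodes an elastin-microfibril interface protein (ENSMUSG00000029163, chromosome 5, 30913402 to 30921277, plus strand). It measured 158, 410, 77.1 and 59.3 CPM in arterioles and 44.0, 60.2, 59.0 and 62.3 CPM in glomeruli, both above whole kidney at 13.04 to 22.5 CPM. The glomerular change against whole kidney, 1.66 ± 0.97, did not pass (FDR = 0.472). Libraries were split in peritubular capillaries, at 44.1, 5.31, 47.3 and 0.782 CPM, and in venules, at 65.5, 8.02, 32.6 and 11.7 CPM. The arteriole change against whole kidney was 3.30 ± 1.03 (FDR = 0.0347). That call ended without arteriole 96, without any 1 of the 4 whole kidney libraries and with library totals in place of TMM scaling (FDR up to 0.126), and the difference of arterioles from glomeruli, 1.64 ± 1.06, did not pass (FDR = 0.431).

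Mfap4 encodes a fibrinogen-related microfibril protein (ENSMUSG00000042436, chromosome 11, 61485431 to 61488900, plus strand). It measured 5.76, 0.322, 5.51 and 39.8 CPM in arterioles, from 27, 2, 49 and 223 reads. Outside arterioles the highest library was venule 93 at 2.13 CPM. The difference from whole kidney was 4.48 ± 2.06 and did not pass (FDR = 0.123). It was called with DESeq2 (FDR = 0.00441) and with the edgeR 4 form (FDR = 0.0313), and was 2.74 without arteriole 100 (FDR = 0.262). Mfap4 shares its locus with Mapk7 on the opposite strand, which had 3183 reads over the 20 libraries against 355 for Mfap4, and whether reads were counted by strand is not stated in the sources at hand. The overlapping genes of Eln, Fbn1 and Lox had 2, 1 and 22 reads.

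Ltbp4 encodes a latent TGF-beta binding protein that tethers the growth factor to microfibrils and takes part in elastin assembly (ENSMUSG00000040488, chromosome 7, 27305136 to 27337692, minus strand). It measured 2121, 3472, 1737 and 1673 CPM in arterioles, 253, 161, 166 and 164 CPM in venules and 185, 101, 228 and 182 CPM in glomeruli. Peritubular capillaries held 98.2, 28.3, 7.93 and 99.8 CPM and whole kidney 30.1, 28.6, 27.0 and 29.6 CPM. Arterioles stood above all other libraries, and venules and glomeruli, at nearly the same level, each stood above all whole kidney libraries. The change against whole kidney was 6.29 ± 0.59 in arterioles (FDR = 6.16e-10), 2.69 ± 0.50 in venules (FDR = 0.00418) and 2.59 ± 0.50 in glomeruli (FDR = 0.00104). Venules and glomeruli differed by -0.10 ± 0.50 (glomeruli minus venules), well within the spread (FDR = 1.00).

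Mgp, the calcification inhibitor gene (ENSMUSG00000030218, chromosome 6, 136872435 to 136875823, minus strand), measured 6496, 11190, 6556 and 6755 CPM in arterioles. Venules held 1682, 2470, 1184 and 2289 CPM. Glomeruli, at 255, 176, 378 and 339 CPM, and peritubular capillaries, at 165, 245, 299 and 267 CPM, overlapped with whole kidney, at 228, 317, 251 and 234 CPM. The 4 arteriole libraries, the 4 venule libraries and the 12 others thus formed 3 ranges without overlap. Mgp rose against whole kidney by 4.91 ± 0.33 in arterioles (FDR = 6.46e-14) and by 2.89 ± 0.30 in venules (FDR = 1.55e-07), and arterioles exceeded venules by 2.02 ± 0.31 (FDR = 4.59e-05). Its changes in glomeruli, 0.16 ± 0.28 (FDR = 0.926), and in peritubular capillaries, -0.08 ± 0.28 (FDR = 0.971), were smaller than their errors.

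**Figure D1:**
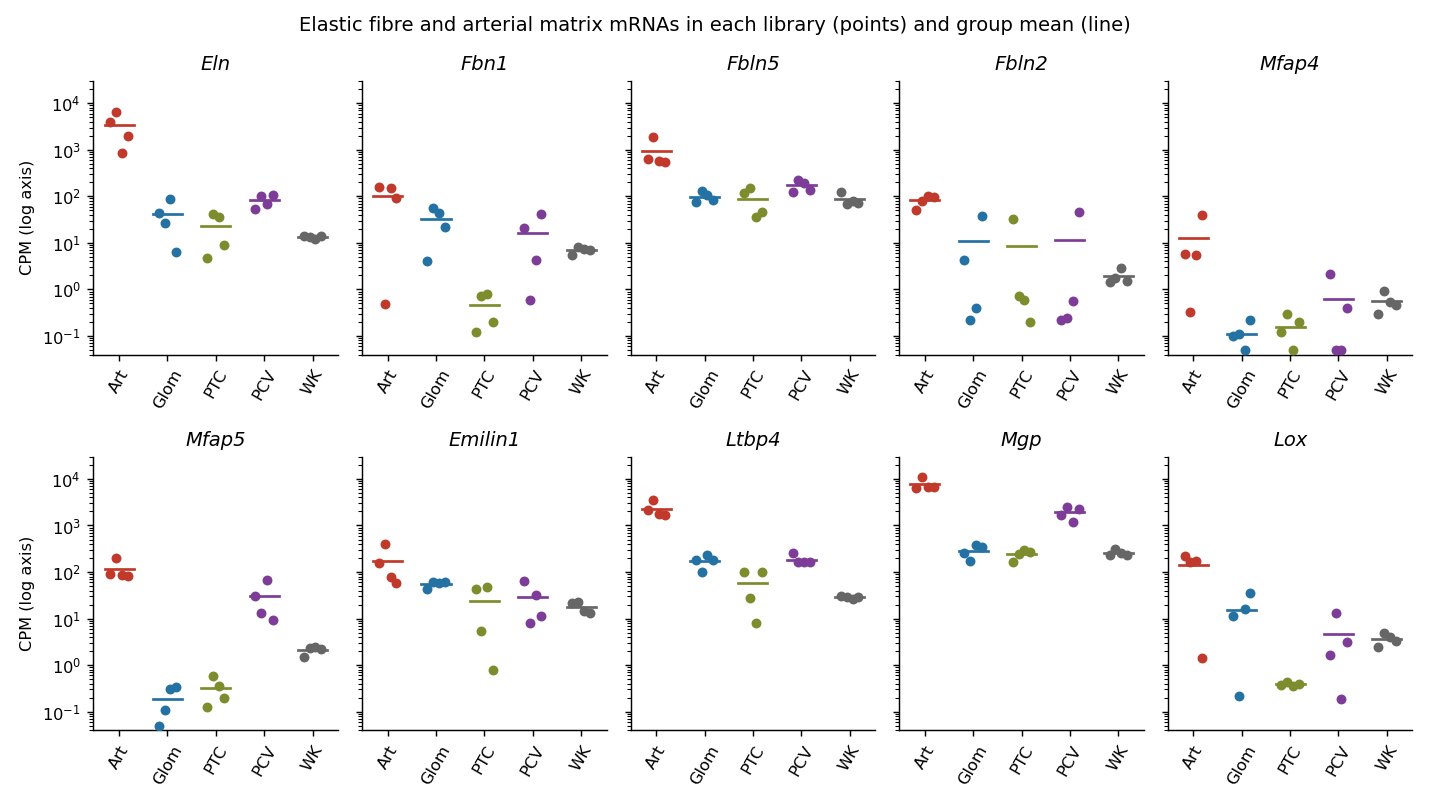
Level of each gene in CPM on a log axis in the 4 libraries of each group (points) with the arithmetic group mean (line); Art, arterioles; Glom, glomeruli; PTC, peritubular capillaries; PCV, post-capillary venules; WK, whole kidney; points at 0 are drawn at the bottom of the axis. For Eln, Fbln5, Fbln2, Mfap5, Ltbp4 and Mgp the 4 arteriole libraries lie above all 16 others, while Fbn1, Mfap4, Emilin1 and Lox each have at least 1 arteriole library in the range of the other groups or below it.

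Because several of these genes were high in the same libraries, the sequence before their start sites was compared. RefSeq promoter windows (GRCm38.p6), each 250 bases ending just before an annotated start, were found for Fbn1, Emilin1, Fbln2, Ltbp4 and Fbln5, with 8 windows in all. Of these, 2 contained no annotated exon of GENCODE and are shown from 5′ to 3′ on the coding strand, because they belong to the Ltbp4 and Fbln5 genes whose arteriole libraries did not overlap with any other. Capitals mark the GC box, GGGCGG, on either strand. The Ltbp4 window lies at chr7:27333664-27333913 on the minus strand, inside the gene and before an internal annotated start. Another Ltbp4 window, at the 5′ end of the gene (chr7:27337613-27337862), held 3 matches to the GC box and is not shown. Which Ltbp4 start these libraries used was not tested. The Fbln5 window lies at chr12:101819120-101819369 on the minus strand.
Ltbp4: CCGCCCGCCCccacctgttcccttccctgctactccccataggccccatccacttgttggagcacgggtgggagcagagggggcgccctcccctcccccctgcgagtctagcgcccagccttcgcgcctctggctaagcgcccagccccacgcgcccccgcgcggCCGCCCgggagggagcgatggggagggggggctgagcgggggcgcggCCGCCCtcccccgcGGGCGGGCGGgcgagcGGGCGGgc
Fbln5: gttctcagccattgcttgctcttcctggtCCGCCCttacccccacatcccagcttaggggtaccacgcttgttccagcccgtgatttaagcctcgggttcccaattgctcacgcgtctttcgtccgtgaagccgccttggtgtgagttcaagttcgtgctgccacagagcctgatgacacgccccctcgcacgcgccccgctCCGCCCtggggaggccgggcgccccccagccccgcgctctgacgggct

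The Ltbp4 window held 7 matches to the GC box, of which 2 pairs overlap, and the Fbln5 window 2. At least 1 match was present in 6 of the 8 windows, against 32.7% of 32851 promoter windows of the same length, but 3 of the 6 belong to Ltbp4 and 2 of those cover nearly the same bases. The CArG box, the sequence bound by serum response factor in smooth muscle genes, was searched on both strands and had no match in any of the 8 windows (1.47% of all windows). The short SMAD element CAGAC had 2 matches each in the Emilin1 window and in the second Fbln5 window (42.2% of all windows hold 1 or more), and TATAAA had none (12.4%). A match is a description of the letters and not of binding.

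Against whole kidney, the genes of the elastic fibre set rose mainly in arterioles. With a call set at an FDR below 0.05 and a log2 change past 1, 7 of the 10 were higher there (Eln, Fbln5, Mfap5, Emilin1, Ltbp4, Mgp and Lox), where 5.78% of the 13813 genes tested were called higher. The other 3 (Fbn1, Fbln2 and Mfap4) had changes of the same sign, and none was called lower (background 5.5%). At an unadjusted p under 0.05 and by DESeq2 none was lower either. The median log2 change of the 10 was 5.08, against 0.22 for all genes tested. Because the set was chosen with earlier results of these data known, its counts beside the backgrounds are descriptive and not a test. In venules 3 rose, Eln (2.63 ± 0.60, FDR = 0.0364), Ltbp4 and Mgp (background 0.203%), and none was called lower (background 0.0217%). None was lower in venules at an unadjusted p under 0.05 or by DESeq2. Eln lost the venule call when any 1 of the 4 venule or 4 whole kidney libraries was left out, with RLE size factors and with library totals (FDR up to 0.203). In glomeruli only Ltbp4 was called (background 1.59%), with Eln at 1.62 ± 0.58 (FDR = 0.119). In peritubular capillaries edgeR called none higher or lower (backgrounds 0.0869% and 0.00724%). At an unadjusted p under 0.05 it had 1 higher there (Ltbp4) and 3 lower (Fbn1, Mfap5 and Lox), and DESeq2 called 2 lower (Fbn1 and Mfap5). All backgrounds here are shares of edgeR calls by FDR and log2 change. Shares of all genes at an unadjusted p or by DESeq2 are not given, so those counts cannot be read against a background.

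Counting libraries gave a similar picture. All 4 arteriole libraries exceeded all 4 whole kidney libraries for 7 genes (Eln, Fbln5, Fbln2, Mfap5, Emilin1, Ltbp4 and Mgp), as for 8.45% of all genes tested, and exceeded all 16 other libraries for those 7 except Emilin1 (2.01%). Venules exceeded whole kidney without overlap for Eln, Fbln5, Mfap5, Ltbp4 and Mgp (5.81%), and glomeruli for Emilin1 and Ltbp4 (14.6%). The microdissected samples were made with a low-input protocol and more PCR cycles than whole kidney, and that difference and the compartment cannot be told apart in these comparisons.

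**Figure D2:**
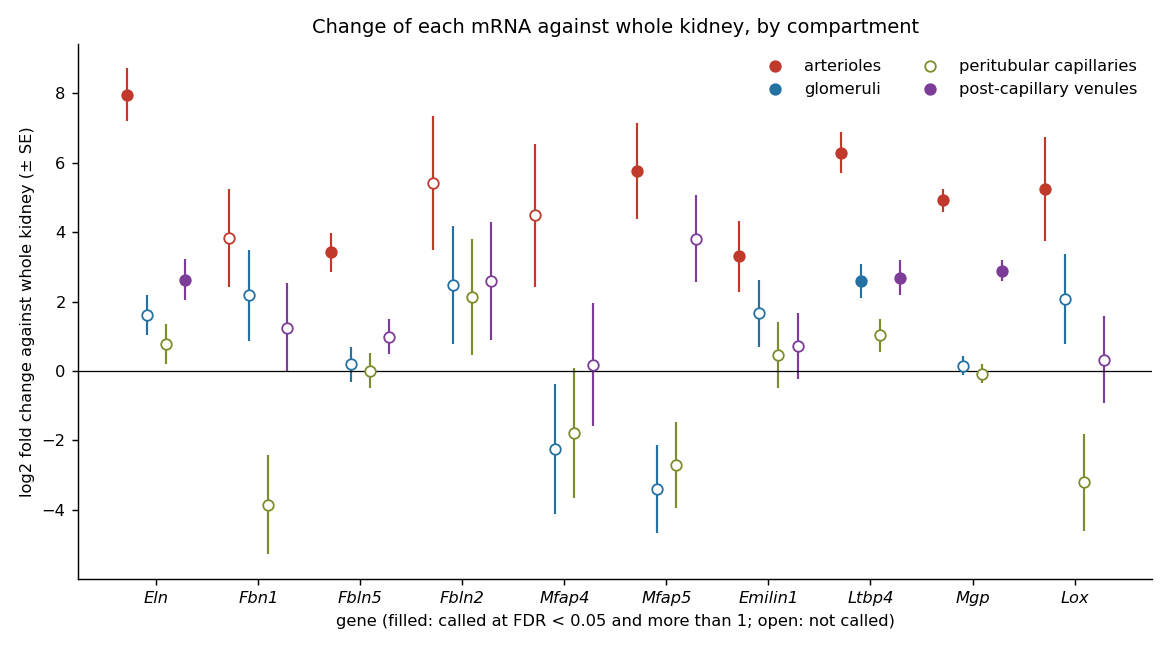
Log2 fold change of each gene against whole kidney (points) with its standard error (bars) for the 4 compartments, from the edgeR fit to 20 libraries; filled points were called and open points were not. Arteriole values run from 3.30 for Emilin1 to 7.96 for Eln, and in venules only Eln, Ltbp4 and Mgp are filled.

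Comparisons among microdissected compartments avoid that difference in preparation. Against the equal-weight mean of glomeruli, peritubular capillaries and venules, 9 of the 10 genes were higher in arterioles at FDR under 0.05, all but Fbln2, where 8.11% of the 12179 genes tested were called higher. The changes ranged from 2.35 ± 0.77 for Emilin1 (FDR = 0.0414) through 3.92 ± 0.22 for Mgp (FDR = 2.33e-16) and 6.28 ± 0.46 for Eln (FDR = 3.77e-13) to 6.51 ± 1.00 for Mfap5 (FDR = 1.26e-05). The Emilin1 call was lost in 12 of 23 alternatives (FDR up to 0.279), among them leaving out arteriole 93 or 96, any glomerular library, peritubular capillary 96 or venule 96, 98 or 100. That of Mfap4 (5.76 ± 1.58, FDR = 0.0133) was lost without arteriole 100 (4.03, FDR = 0.0960). Mfap4 also passed the filter largely through arterioles, so its place among the 9 is not independent of its level there. With the library number as a replicate block, 3 of the 9 calls were lost, Fbn1 (FDR = 0.0676), Mfap4 (FDR = 0.0570) and Emilin1 (FDR = 0.0875), and Fbln2 was called (6.10, FDR = 0.0107).

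In peritubular capillaries 7 of the 10 were lower than in the other 3 compartments (background 2.91%): Eln (-3.29 ± 0.59), Fbn1 (-6.27 ± 1.70), Fbln5 (-1.52 ± 0.49), Mfap5 (-4.76 ± 1.43), Ltbp4 (-2.83 ± 0.49), Mgp (-2.73 ± 0.29) and Lox (-5.74 ± 1.62). Leaving out 1 peritubular capillary library reduced the count to 3 without library 93 or 100 and to 4 without library 98. Lox and Mfap5 each lost the call without any 1 peritubular capillary library (FDR up to 0.0750 and 0.566 over all alternatives), Mfap5 also without arteriole 96, glomerulus 98 or venule 98 and with the replicate block (FDR = 0.0585). The Fbln5 call was lost in 12 of 23 alternatives, FDR up to 0.171, each of them a fit without 1 library: arteriole 96, any glomerular library, peritubular capillary 93, 98 or 100, or any venule library. In glomeruli Eln (-2.17 ± 0.55), Mfap5 (-5.68 ± 1.50) and Mgp (-2.42 ± 0.29) were lower (background 1.33%), a count that fell to 1 without glomerulus 96 or 100, while leaving out either of the other glomerular libraries ended the Mfap5 call only. These contrasts include arterioles in the mean, so that the high arteriole level enters each of them. In venules, Mgp (1.23 ± 0.23, FDR = 0.00394) and Mfap5 (3.94 ± 0.94, FDR = 0.0394) were higher than in the other 3 compartments (background 0.369%). The Mfap5 call was lost in 17 of 23 alternatives (FDR up to 0.220), including the replicate block (FDR = 0.119) and leaving out any 1 library other than peritubular capillary 100, and the Mgp call without venule 96 (1.08, FDR = 0.0502).

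Pairwise, arterioles exceeded glomeruli in 5 genes (Eln, Fbln5, Mfap5, Ltbp4 and Mgp, background 1.33%), peritubular capillaries in these and in Fbn1 and Lox (background 6.22%), and venules in Eln, Fbln5, Ltbp4 and Mgp (background 2.5%). Those 4 genes were therefore higher in arterioles than in each other compartment, which held for 0.698% of genes tested. All 4 arteriole libraries exceeded all 4 venule libraries for 6 genes, Fbln2 and Mfap5 included (4.47% of all genes tested). Between the other compartments, venules exceeded glomeruli in Mfap5 (glomeruli minus venules -7.21 ± 1.66, FDR = 0.0170) and Mgp (-2.74 ± 0.32, FDR = 4.31e-07; background 0.731%). The Mfap5 difference was lost without any 1 glomerular library or venule 98 (FDR up to 0.0752). Venules exceeded peritubular capillaries in Mgp (peritubular capillaries minus venules -2.97 ± 0.32, FDR = 7.87e-08; background 0.328%). Glomeruli exceeded peritubular capillaries only in Fbn1 (background 2.2%).

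The high levels in arterioles came with high smooth muscle marker levels, so each gene was also expressed per 100 counts of the summed smooth muscle markers in the same library. Eln then measured 10.1, 12.5, 3.51 and 9.74 in arterioles and 5.15, 8.39, 6.85 and 9.68 in venules, which overlap. Mgp measured 16.3, 21.6, 27.4 and 33.8 in arterioles and 163, 205, 118 and 207 in venules. On this scale every venule library exceeded every arteriole library for Mgp, the reverse of the order in CPM. The same held for Fbln5 (1.59 to 3.70 in arterioles and 12.1 to 19.6 in venules), Mfap5 (0.230 to 0.414 and 0.834 to 6.82) and Ltbp4 (5.31 to 8.37 and 13.3 to 24.6). The markers themselves took on average 2.5% of counts in arterioles and 0.108% in venules. Any gene with a smaller excess in arterioles than the markers turns lower on this scale. How many of all genes do so was not counted, so the reversal is not read as a trait of these genes.

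The log2 difference, arterioles minus venules, was 0.15 for Eln (exact permutation p = 0.686), -2.82 for Mgp, -2.61 for Fbln5, -2.60 for Mfap5 and -1.30 for Ltbp4 on the smooth muscle scale. Each of the last 4 had an exact two-sided permutation p of 0.0286, the smallest that 4 against 4 libraries allow. After adjustment over the 10 genes it was 0.0714, so none passed. With only 4 genes at the smallest p, none could have passed, so this outcome says nothing about the size of the differences. The Eln difference changed sign without arteriole 96 (-0.06) or venule 93 (-0.02).

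Per 100 counts of fibroblast markers, arterioles were the higher group. Eln measured 172, 135, 33.6 and 62.8 in arterioles and 3.25, 5.13, 7.39 and 8.35 in venules, Ltbp4 53.9 to 89.9 and 8.16 to 17.7, and Mgp 218 to 275 and 103 to 178. For these 3 genes every arteriole library exceeded every venule library, with log2 differences of 3.89, 2.44 and 0.92 (exact permutation p = 0.0286 each, 0.0952 after adjustment). Here too, 3 genes at the smallest possible p could not pass after adjustment. How many of all genes separate the compartments on this scale was not counted. Fbln5 (1.13, exact permutation p = 0.0571) and Mfap5 (1.14, exact permutation p = 0.257) overlapped between the compartments. The order of arterioles and venules for Mgp and Ltbp4 thus differed between the scales. Dpep1, 1 of the 12 fibroblast markers, is also expressed by proximal tubules, and made up 2.41% to 17.8% of the fibroblast counts in arterioles and 4.30% to 24.2% in venules. Without it, a choice made after seeing the data, the differences were 3.77 for Eln, 2.32 for Ltbp4 and 0.80 for Mgp.

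**Figure D3:**
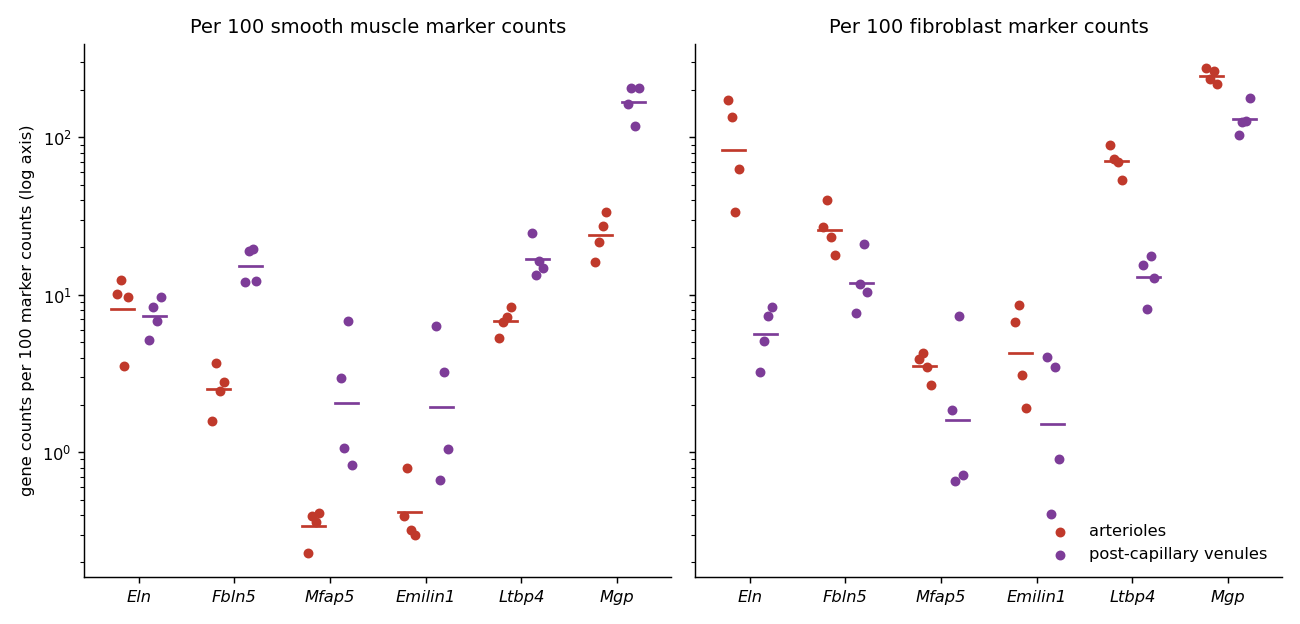
Counts of 6 genes per 100 summed marker counts of the same library on a log axis, for arterioles and post-capillary venules (4 points each, with the geometric mean as a line), scaled to smooth muscle markers (left) and fibroblast markers (right). Mgp, Fbln5, Mfap5 and Ltbp4 lie higher in venules on the left, and Eln, Ltbp4 and Mgp lie higher in arterioles on the right.

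Genes whose pattern over the 20 libraries came closest were found from the root mean square difference in log2 CPM, each gene centred on its own mean, among 12356 named genes. For Eln the nearest were Myh11 (1.01), Tpm2 (1.09), Acta2 (1.11), Rgs5 (1.19), Flna (1.23) and Crip1 (1.32), against a median of 3.91 over all genes. Myh11, Tpm2, Acta2 and Flna encode proteins of the contractile apparatus or the actin network, and Rgs5 is a marker of pericytes and smooth muscle. Within the set, Mgp ranked 10 and Ltbp4 27 in likeness to Eln, and Fbn1 only 2588. For Mgp the nearest were Rarres2 (0.908), Rcn3 (0.946), Tgm2 (1.02), Col1a1 (1.02), Bgn (1.06) and Col3a1 (1.06), with a median of 3.17, and Fbln5 ranked 8. Col1a1, Col3a1 and Bgn encode matrix proteins that fibroblasts secrete, and in venules Col1a1 measured 379 ± 150 CPM and Col3a1 212 ± 124 CPM, against 43.1 ± 2.30 and 34.7 ± 7.69 CPM in whole kidney (SD, n = 4). Of the 12 fibroblast markers only Col1a1 was called higher in venules than in whole kidney, with a median log2 change of 1.24 for the list against 0.19 for all genes, and Pi16 was at 2.62 and 3.00 CPM. For Fbln2 the nearest were the endothelial nitric oxide synthase gene Nos3 (1.79), Brwd3 (1.84), Mcam (1.89), Dact3 (1.91), Rbm24 (1.93) and Dmpk (1.93), with a median of 3.78, so that no gene followed Fbln2 as closely as the nearest followed Eln or Mgp. These values describe the same 20 libraries, which share the compartment groups.

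Other genes of the same fibres and of their turnover were followed as 6 lists, also chosen with earlier results of these data known. Their counts are set beside the shares of all genes called in arterioles, which is a description and not a test. These shares were 5.78% higher and 5.5% lower against whole kidney and 8.11% higher against the other 3 compartments. Of 21 tested genes for other microfibril and elastic fibre proteins, 11 rose in arterioles against whole kidney and 1 fell, with a median log2 change of 3.80, and 10 were higher and 1 lower than in the other 3 compartments. Those with the smallest p in either comparison were Bgn (4.47 ± 0.41, FDR = 3.69e-10) and Dcn (3.64 ± 0.58, FDR = 2.61e-05), the small proteoglycans biglycan and decorin, Hspg2, perlecan (4.61 ± 0.66, FDR = 4.31e-06), the endothelial EMILIN relative Mmrn2 (4.34 ± 0.62, FDR = 4.37e-06) and Mfge8 (3.80 ± 0.57, FDR = 9.14e-06). Mfap3l fell (-6.54 ± 1.50, FDR = 0.00335), and its lower level against the other 3 compartments (-5.68) was no longer called without arteriole 96 (FDR up to 0.0593). The share of all genes called lower in arterioles than in the other 3 compartments is not given, so that 1 lower gene cannot be read against a background. Of 7 tested lysyl oxidases and other crosslinking enzymes, 3 rose against whole kidney and 0 fell. They were the transglutaminase gene Tgm2 (3.42 ± 0.41, FDR = 1.70e-07), the lysyl hydroxylase gene Plod3 (3.44 ± 0.83, FDR = 0.00510) and Loxl1 (3.95 ± 0.96, FDR = 0.00578), a lysyl oxidase of elastic fibres. Against the other 3 compartments 2 were higher, Tgm2 and Loxl1, and Plod3 was not called (1.63 ± 0.62, FDR = 0.0793).

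Another list held the TGF-beta ligand genes Tgfb1, Tgfb2 and Tgfb3 together with Lrrc32. Whether the product of Ltbp4 holds any of these ligands here was not tested. Of the 4 genes tested, Tgfb3 (7.57 ± 1.11, FDR = 6.92e-06), Tgfb2 (5.70 ± 1.29, FDR = 0.00297) and Lrrc32 (4.50 ± 0.91, FDR = 0.000802), which holds latent TGF-beta at the cell surface, rose in arterioles. The same 3 exceeded the other 3 compartments. Tgfb1 was not called in either comparison, at 21.3 ± 36.8 CPM in arterioles and 2.02 ± 0.545 CPM in whole kidney (SD, n = 4). Without arteriole 96 the Tgfb2 calls were lost (FDR = 0.0791 against whole kidney and 0.105 against the other compartments).

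Of the arterial wall collagens, 8 of 14 tested were higher than whole kidney and 0 lower, with a median of 3.35, and 10 of 13 higher than the other 3 compartments, where 5.78% and 8.11% of all genes were higher. Those with the smallest p in either comparison were Col8a1, a collagen of the vessel wall (5.47 ± 0.81, FDR = 8.53e-06), Col1a1 (4.50 ± 0.65, FDR = 5.38e-06), Col18a1 (3.36 ± 0.49, FDR = 6.93e-06), Col3a1 (3.97 ± 0.73, FDR = 0.000278) and Col6a1 (4.14 ± 1.04, FDR = 0.00782). Against whole kidney alone, Col6a2 (4.68 ± 1.06, FDR = 0.00303) and Col1a2 (2.50 ± 0.57, FDR = 0.00324) had a smaller p than Col6a1. Col6a1 lost both calls without arteriole 96 (FDR = 0.120 and 0.107). Col1a1, Col1a2 and Col3a1 are also members of the fibroblast marker list.

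Of 13 tested elastin-degrading enzymes and their inhibitors, 4 rose in arterioles (5.78% of all genes) and 1 fell (5.5% of all genes), with a median of 0.19 against 0.22 for all genes. The inhibitor genes Timp2 (4.13 ± 0.41, FDR = 2.58e-09) and Timp3 (1.31 ± 0.25, FDR = 0.000321) rose, and so did the proteases Mmp2 (4.59 ± 1.52, FDR = 0.0442) and Mmp14 (3.22 ± 1.01, FDR = 0.0343), while Serpina1a fell (-6.99 ± 2.09, FDR = 0.0266). Timp3 lost its call with library totals. The calls of Mmp2, Mmp14 and Serpina1a were lost without any 1 of the 4 whole kidney libraries (FDR up to 0.106, 0.0961 and 0.0711), and also without arteriole 96 or 100 or glomerulus 98 for Mmp2, arteriole 93 or 100 for Mmp14 and arteriole 96 or 98 for Serpina1a. Against the other 3 compartments 2 of 11 tested were higher (8.11% of all genes), Timp2 (1.78 ± 0.30) and Mmp2 (5.07 ± 1.11). Timp3 (0.18 ± 0.22, FDR = 0.629) and Mmp14 (1.50 ± 0.77, FDR = 0.183) were not called. Mean Timp3 was 4455 CPM in peritubular capillaries and 3314 CPM in arterioles. Of 8 tested genes for the carboxylation that activates matrix Gla protein and for other calcification inhibitors, 0 rose against whole kidney. Nt5e, which makes extracellular adenosine, fell (-5.41 ± 1.35, FDR = 0.00722). The median of that list was -0.37.

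In peritubular capillaries only Timp3 of these lists was called against whole kidney (1.74 ± 0.25, FDR = 0.000114). In venules the genes that rose against whole kidney were Bgn (2.19 ± 0.37, FDR = 0.00135), Dcn (3.07 ± 0.56, FDR = 0.00356), Timp2 (2.69 ± 0.38, FDR = 5.87e-05) and Col1a1 (3.14 ± 0.61, FDR = 0.00686). In glomeruli they were Mmrn2, Mfge8, Hspg2, Bgn, Timp2, Col8a1 and Col18a1, with log2 changes from 1.97 for Col18a1 to 3.64 for Timp2.

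**Figure D4:**
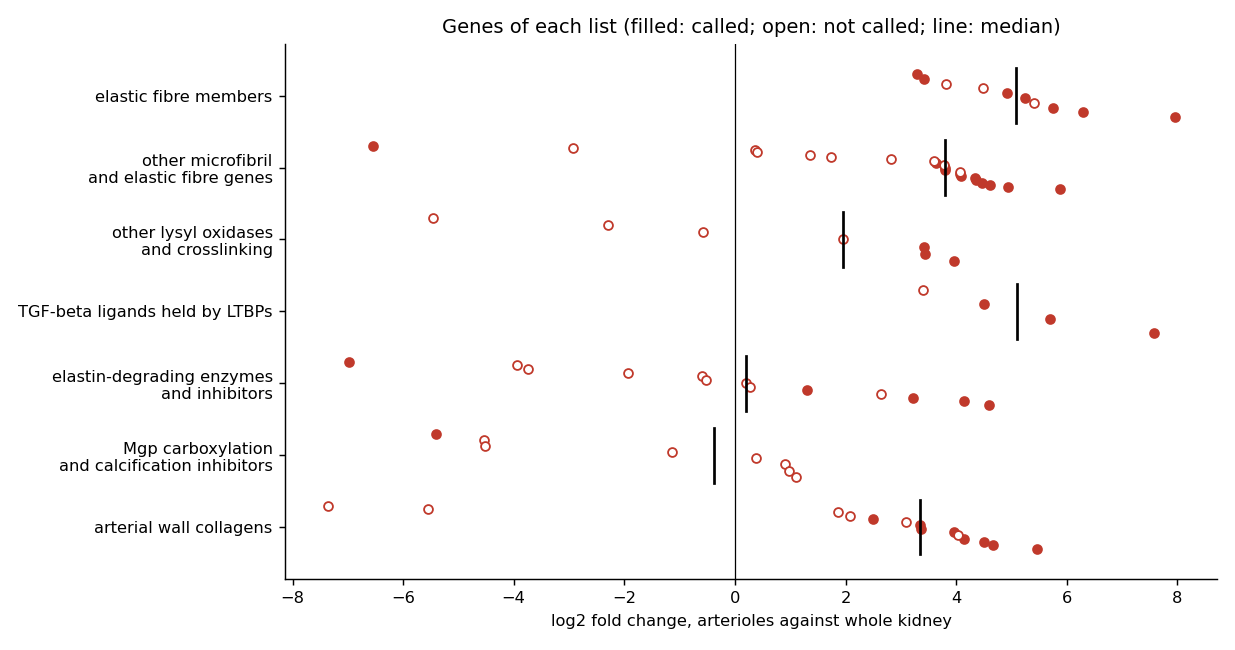
Log2 fold change in arterioles against whole kidney for each tested gene of the elastic fibre set and of the 6 other lists; filled points were called, open points were not, and the line is the list median. The medians run from 5.10 for the TGF-beta list and 5.08 for the elastic fibre set down to -0.37 for the list of carboxylation and calcification inhibitor genes.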

How the data were processed

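Reads of QuantSeq 3′ mRNA libraries were trimmed with bbduk, aligned with STAR 2.7 to GRCm38.p6 and assigned to genes with htseq-count 0.13 by the authors, who deposited raw read counts without normalization in a single table. The submitters' processing notes also list GRCm39. The table has 168 columns of values, and 148 of them stayed out of every step. Groups were read from the table's header lines, and the column numbers could not be tied to labelled replicates.

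Counts were fitted in R 4.3.3 with edgeR 4.0.16 (TMM, filterByExpr, quasi-likelihood test, legacy form), with all 20 libraries for comparisons with whole kidney and the 16 microdissected libraries for the others. FDR is the Benjamini-Hochberg value over all genes tested, SE is the log2 change divided by the square root of F, and calls required FDR under 0.05 and, against whole kidney, a log2 change past 1. Ratios to marker counts used a pseudocount of 0.5. On simulated counts with known changes between arterioles and whole kidney (13490 genes), 4% of 4-fold and 24% of 16-fold changes were called, with 0 false calls, so an uncalled gene may differ.

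The genes and lists were chosen with earlier results of these data known. All 10 genes are named, and of each other list up to 5 called in an arteriole comparison by p, and up to 2 in the opposite direction. Coordinates are from GENCODE M21. Alternatives were RLE factors, no filter, independent filtering, DESeq2 1.42.0, the edgeR 4 form, only the groups compared, a replicate block, leaving out each library, a pseudocount of 5 and, chosen after seeing the data, library totals without TMM and fibroblast markers without Dpep1.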

Additional observations from a re-analysis of the deposited data

Results flagged for a closer look

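Among the 50 combinations of gene and group, 8 had a library whose gap to the nearest of the others exceeded Dixon's 95% critical value for 4 samples, where chance gives about 1 in 20. Of these, 3 were in arteriole 96: Fbln5 at 1922 CPM against 555 to 634 in the other arterioles, Mfap5 at 204 CPM against 82.6 to 92.1, and Mgp at 11190 CPM against 6496 to 6755. That library had the lowest TMM factor of all 20, 0.545, and on the scale of the plain library total none of the 3 stood apart (Fbln5 1043 against 480 to 590, Mfap5 111 against 70.6 to 87.6, and Mgp 6074 against 4978 to 6617 CPM).

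Fbln2 stood apart in 3 compartments, each time in a single high library: glomerulus 100 at 37.9 CPM against 0.221 to 4.31, peritubular capillary 93 at 32.2 CPM against 0.196 to 0.738, and venule 100 at 45.1 CPM against 0.224 to 0.556. All 3 remained apart on the plain library total. Mfap4 in arteriole 100 measured 39.8 CPM against 0.322 to 5.76 in the others, and also remained apart there. Ltbp4 in venule 93 measured 253 CPM against 161 to 166, and did not stand apart on the plain library total. On that scale, which was chosen after seeing the data, 3 other libraries stood apart instead: Fbln2 in whole kidney 98, Mfap4 in venule 93 and Emilin1 in glomerulus 93.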

How the results depend on the processing

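Alternative values were counted for every called gene and comparison pair, and for uncalled arteriole changes against whole kidney or the other 3 compartments. Of these 1373 values, 1250 kept direction and side of the threshold, 106 kept direction and lost the call and 17 gained it. All 17 gains were among the uncalled arteriole changes (Fbn1, Fbln2 and Mfap4). The remaining uncalled pairs are not in this count, so it does not describe their stability. Among the 88 gene and comparison pairs without a call, 25 changed sign under 1 or more alternatives, the largest at 2.59 for Fbln2 in venules against whole kidney. With the exact test on 3 against 4 libraries the smallest p is 0.0571, so leaving out a library cannot test the ratios to marker counts. The Eln ratio to smooth muscle markers ranged from -0.06 (without arteriole 96) to 0.55 when 1 library was left out, and was -0.02 without venule 93. Causes were not tested.

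Against whole kidney, Ltbp4 alone was called higher in glomeruli, and 2 genes were with no filter, independent filtering or only the groups compared. Glomeruli had 1 lower gene with only the groups compared or DESeq2, and peritubular capillaries 3 and 2 in place of 0. Venules exceeded the other 3 compartments in 1 gene with the edgeR 4 form, the replicate block or DESeq2, in place of 2. Arterioles exceeded venules in 7 genes with DESeq2 in place of 4. Glomeruli exceeded peritubular capillaries in 2 genes with no filter, the replicate block or DESeq2 and in 3 with library totals or independent filtering, in place of 1. Glomeruli were lower than venules in 1 gene with the edgeR 4 form in place of 2. Peritubular capillaries were lower than venules in 3 genes with no filter or DESeq2, 2 with the block and 4 with independent filtering, in place of 1. The shares of all genes called under these alternatives are not given, so the counts show only how the calls moved.

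Leaving out each library gave 5 to 8 genes higher in arterioles against whole kidney and 8 to 10 against the other 3 compartments, 1 to 3 lower in glomeruli and 3 to 7 lower in peritubular capillaries against the other 3, and 0 to 2 higher in venules. It gave 0 to 2 for glomeruli above peritubular capillaries and 1 to 2 for glomeruli below venules. Same-numbered libraries did not deviate together (40 pairs, r from -0.046 to 0.063), which does not show whether a number marks a mouse, so the fit without the replicate block was kept. With the block Fbn1 in arterioles against the other 3 compartments was 3.92 (FDR = 0.0676), and a call lost under it is not read as a weaker effect.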
